A study of Mus musculus with 6 samples.

Results

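The 3T3-L1 line is a mouse embryo fibroblast line that can be turned into adipocytes in culture, and the genes described here are the protein-coding genes of its control cultures. They were ranked by the mean FPKM of control libraries 1 and 2. FPKM counts the fragments of a gene per kilobase of its exons, scaled to the fragments of the library. Of 54532 rows in both gene tables, 21918 are protein-coding genes by their GENCODE biotype, and every one of them is in the ranking. The series holds 6 libraries, 3 control and 3 of cells given chronic intermittent hypoxia (CIH, repeated spells of low oxygen), all of the 3T3-L1 line labelled WT. Per the labels, all cells were grown with 10% serum at 37 °C and 5% CO2, induced with insulin and then fed medium with 0.1 µM insulin until day 8. The CIH libraries are not described here, and control 3, deposited on another scale, enters only to check ranks. The labels name no separate cultures, so the spread between libraries may be technical, and all libraries come from 1 cell line in which any undifferentiated cell shares the dish.

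Differentiation of 3T3-L1 cells starts when growth-arrested fibroblasts receive hormonal inducers. The transcription factors Cebpb and Cebpd come on first and lead to Pparg and Cebpa, which keep up the genes of lipid storage, insulin-stimulated glucose uptake and secreted adipokines. Mature adipocytes hold triglyceride in droplets coated by perilipins and CIDE proteins, make fatty acids from glucose, and release them again by lipolysis. The level of an RNA in a bulk culture cannot tell fewer cells of a type from less RNA per cell.

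The depth to which the FPKM are scaled was about 25700000 fragments in control 1 and 28000000 in control 2, read from the whole-number steps of low values. Fragments recovered on annotated genes summed to slightly more, 26444097 and 28549859, and the reason was not tested. The SD from counting alone had a median of 0.06 on the log2 scale over 9786 genes whose mean reached 1 FPKM. Protein-coding genes made up 88.9% and 89.4% of the summed FPKM. Pairs of values below give control 1 first and control 2 second.

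A threshold of 1 FPKM in both libraries was passed by 9668 genes, or 44.1% of all protein-coding genes, and these are called expressed below. This 44.1% is the background for every count of expressed genes in a list. At 0.1 FPKM in both stood 11818 genes (53.9%), at 10 FPKM 4316 (19.7%), at 100 FPKM 422 (1.93%) and at 1000 FPKM 22 (0.100%). A further 7120 genes (32.5%) were listed at 0 in both. The median was 0.342 FPKM over all protein-coding genes and 8.87 FPKM over the expressed ones. Expression was concentrated in few genes: the 10 highest held 15.2% and 13.1% of the protein-coding FPKM, the 100 highest 34.0% and 32.6%, and 360 and 381 genes were enough for 50%. The 13 mitochondrial-encoded genes alone took 12.7% and 10.4%. Among nuclear-encoded genes the 100 highest held 25.5% and 25.7% of the nuclear protein-coding FPKM.

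**Figure D1:**
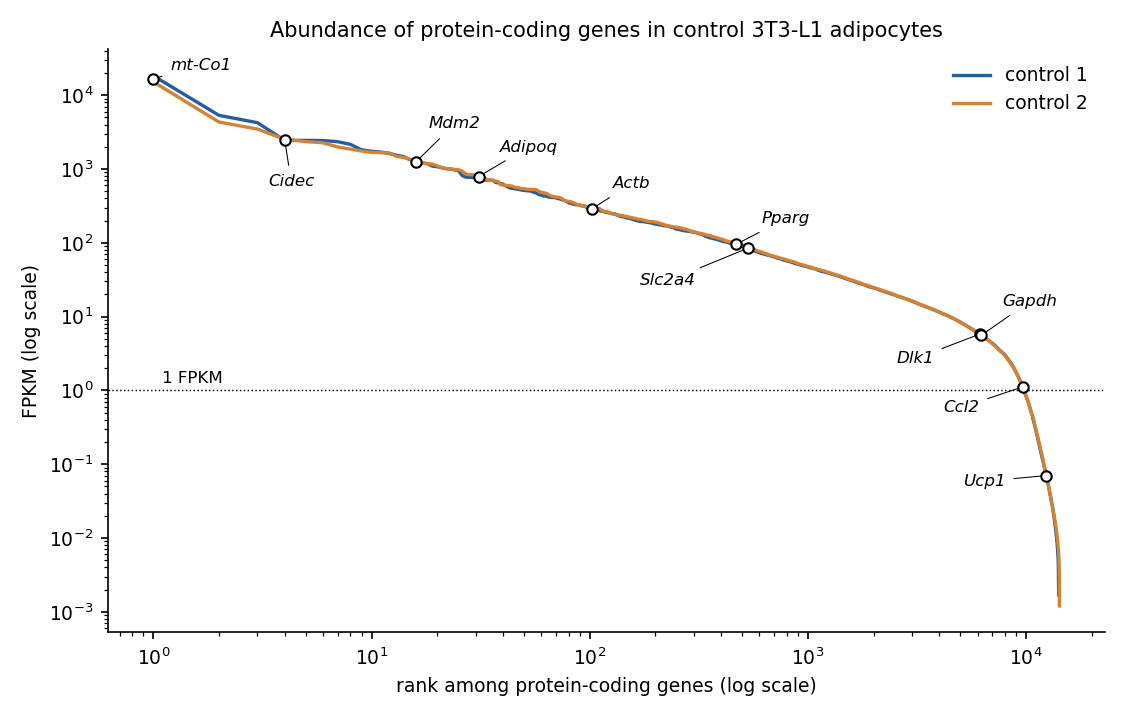
FPKM of protein-coding genes (vertical axis, log scale) against their rank in control 1 and in control 2 (horizontal axis, log scale). Open circles mark 11 named genes at their mean over both libraries and the dotted line marks 1 FPKM. Both curves run together from mt-Co1 down, fall off steeply past about the 9668 expressed genes, and place Ucp1 far below the line.

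The highest nuclear gene was Cidec, which encodes a lipid droplet protein that fuses droplets into larger ones. Its level was 2447 and 2533 FPKM, a mean of 2490.2 ± 60.6 (SD, n = 2), and the gene lies on chromosome 6 at 113424634 to 113435760 (GRCm38, as are all coordinates). Fth1, the heavy chain of the iron store ferritin, followed at 2432 and 2352 FPKM, and Eef1a1, which brings transfer RNAs to the ribosome, at 2345 and 2265 FPKM. Fabp4, the fatty acid carrier of adipocytes, stood at 1698 and 1992 FPKM (1845 ± 207 (SD, n = 2)). Scd1, the desaturase that makes oleate, stood at 1823 and 1683 FPKM. Cidec, Fth1 and Eef1a1 kept this order in both libraries, with SDs of 60.6, 57.1 and 56.7 FPKM, and Fabp4 and Scd1 were below all of them in both. Fabp4 and Scd1 changed places between the libraries.

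Next in rank came Aldoa, a glycolytic aldolase, at 1540 and 1664 FPKM, and Bsg (basigin), a membrane partner of lactate transporters, at 1476 and 1653 FPKM. Slc35e3, a gene of the nucleotide sugar transporter family, was at 1635 and 1486 FPKM. Agt, the precursor of angiotensin, reached 1338 and 1437 FPKM, and Mdm2, the ubiquitin ligase that holds p53 low, 1296 and 1207 FPKM. The light chain of MHC class I, B2m, was at 1183 and 1048 FPKM and the secreted protease adipsin, Cfd, at 1013 and 1214 FPKM. Pnpla2, the first lipase of lipolysis, stood at 1097 and 1106 FPKM and differed by less between the libraries than its neighbours in rank. The ribosomal stalk gene Rplp1 was at 1000.1 and 1164 FPKM, the zinc-binding metallothionein Mt1 at 1042 and 1009 FPKM and lipoprotein lipase, Lpl, at 1073 and 942 FPKM. Complement C3, which adipocytes secrete, was at 973 and 987 FPKM and the elongation factor Eef2 at 951 and 1007 FPKM. The last 12 of the 30 highest nuclear genes lay between 665 and 843 FPKM in the mean. They were the cytochrome oxidase subunits Cox8a and Cox6a1, haptoglobin (Hp), Gpd1, Scd2, Adipoq, the caveolar coat gene Cavin1, Rplp0, Ldha, Hsp90ab1, the ATP synthase subunit Atp5b and Pgk1. Among these, Cox8a was at 708 FPKM in control 1 and 979 FPKM in control 2, and the other 11 differed less.

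Sorted by function by hand, the 100 highest nuclear genes held 18 genes of translation, 15 of the respiratory chain and other mitochondrial proteins, 13 of lipid storage, uptake and synthesis, 10 of matrix, cytoskeleton and caveolae and 9 of carbon metabolism. A further 8 encode secreted hormones and plasma-type proteins, 6 metal-binding and redox proteins, 5 chaperones and 3 antigen presentation and interferon proteins, and 13 were placed in no class. By abundance the 13 lipid genes came first, with 5.11% and 4.98% of the nuclear protein-coding FPKM. The 18 translation genes held 4.33% and 4.52%. The 15 mitochondrial protein genes held 2.75% and 2.89%, the 8 secreted proteins 2.39% and 2.52%, and the 9 carbon metabolism genes 2.33% and 2.35%.

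Promoter sequences of RefSeq (GRCm38.p6, 250 bases before to 50 after each annotated start) were found for 16514 of 21885 nuclear protein-coding symbols. They are shown as examples of base composition just before the start, and the genes of the second group were picked by hand. The first group below are, among nuclear genes with a promoter entry, the 4 highest with the letters TATAAA at −45 to −15, in capitals. Each line gives the 60 bases that end just before the start, 5′ to 3′. The windows lie on the strand of the gene at chr8:124569707-124569766 (minus) for Agt, chr17:35263034-35263093 (plus) for H2-D1, chr7:35119233-35119292 (plus) for Cebpa and chr2:157337427-157337486 (minus) for Ghrh.
Agt: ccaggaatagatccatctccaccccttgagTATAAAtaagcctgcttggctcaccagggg
H2-D1: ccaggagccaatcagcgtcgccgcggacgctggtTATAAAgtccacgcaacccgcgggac
Cebpa: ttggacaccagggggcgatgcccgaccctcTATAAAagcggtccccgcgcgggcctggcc
Ghrh: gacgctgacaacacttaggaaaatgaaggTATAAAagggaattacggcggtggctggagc
The second group shows CG pairs in capitals in 2 adipocyte genes and 3 broadly used genes. These windows lie at chr16:23146476-23146535 (plus) for Adipoq, chr7:79732777-79732836 (minus) for Plin1, chr9:78481725-78481784 (minus) for Eef1a1, chr19:6057887-6057946 (plus) for Fau and chr10:117710759-117710818 (minus) for Mdm2.
Adipoq: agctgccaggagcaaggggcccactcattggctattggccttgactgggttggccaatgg
Plin1: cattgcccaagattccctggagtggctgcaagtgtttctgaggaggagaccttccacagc
Eef1a1: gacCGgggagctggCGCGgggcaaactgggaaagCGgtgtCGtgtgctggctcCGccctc
Fau: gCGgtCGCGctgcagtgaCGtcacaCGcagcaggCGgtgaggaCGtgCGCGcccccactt
Mdm2: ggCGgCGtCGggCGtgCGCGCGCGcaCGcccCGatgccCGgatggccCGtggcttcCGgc
TATAAA starts 30 bases before the start in Agt and Cebpa, 26 in H2-D1 and 31 in Ghrh. Adipoq and Plin1 show no CG in these 60 bases, against 6 in Eef1a1, 9 in Fau and 13 in Mdm2, and over the full 300 bases the counts were 0, 2, 22, 39 and 35.

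Over all genes with a promoter entry, TATAAA on the gene's strand at −45 to −15 was found in 516 of 16514 (3.12%), and its reverse complement TTTATA in 143. Expressed genes held it in 99 of 7737 (1.28%) and genes listed at 0 in both libraries in 315 of 5088 (6.19%). Of the 100 highest nuclear genes, 68 had an entry and 2 of them held it (2.94%), Agt and H2-D1. The adipokine list held it in 4 of 16 genes (Agt, Fgf21, Rbp4 and Tnf), the placental and pituitary hormone list in 7 of 13 and the ribosomal protein list in 0 of 63. Of those 4 adipokine genes only Agt was expressed, with Fgf21 at 0.654 and 0.451 FPKM and Rbp4 and Tnf listed at 0. The median number of CG pairs per 300 bases was 22 in expressed genes and 3 in genes listed at 0. It was 19.5 in the 100 highest, 21 in ribosomal protein genes, 10 in adipokine genes and 9 in lipid droplet genes. Other adipocyte lists were higher, with 14 in fatty acid uptake, 16.5 in lipolysis, 18 in fatty acid and triglyceride synthesis and 25.5 in adipogenic transcription factors. Cebpa, printed above, had 29. The printed adipocyte and broadly used genes thus do not stand for their groups. A match is a description of these letters only, and the promoters in use in these cells were not measured.

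The mitochondrial genome encodes subunits of the respiratory chain, and its RNA ranked from the 1st place to far down the list. The cytochrome oxidase subunit mt-Co1 was the highest gene of all at 18358 and 15170.2 FPKM, alone 6.42% and 5.31% of the protein-coding FPKM. The complex I subunit mt-Nd1 followed at 5334 and 4336 FPKM and cytochrome b, mt-Cytb, at 4249.6 and 3481 FPKM. Values of mt-Nd2 were 2445 and 1751 FPKM, of mt-Nd5 2160.5 and 1859.7 FPKM, of mt-Nd4 1739 and 1362 FPKM and of mt-Nd6 1209.7 and 1183 FPKM. The other subunits were far lower, mt-Co2 at 234 and 221 FPKM, mt-Atp6 at 194 and 135 FPKM, mt-Co3 at 194 and 111 FPKM and mt-Nd4l at 52.1 and 39.8 FPKM. Lowest were mt-Atp8 at 5.52 and 7.88 FPKM and mt-Nd3 at 5.02 and 5.24 FPKM. Of the 13 genes, 11 were lower in control 2, with a median log2 ratio of −0.29. Shared sequence, the percentage of a transcript's 50-base windows that also occur in another annotated gene, ran from 98.0% to 100% in mt-Co2, mt-Atp6, mt-Co3, mt-Nd4l and mt-Nd3. It was 62.2% in mt-Nd4, 51.1% in mt-Co1, 8.19% in mt-Nd2, 7.61% in mt-Nd5 and 0 in mt-Nd1, mt-Cytb, mt-Nd6 and mt-Atp8. Control 3 ranked mt-Atp8 1st, mt-Nd4l 4th and mt-Nd3 5th, so the order among mitochondrial genes differed between the kinds of table. As a share of fragments instead of FPKM, the genome's part was 4.37% instead of 11.5%.

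Genes that store and handle fat were near the top of the ranking. Of 15 lipid droplet genes, 12 were expressed, 10 stood at 10 FPKM or more and 6 at 100 or more, with a median of 63.4 FPKM against 0.342 for all protein-coding genes. After Cidec came the perilipins that coat droplets, Plin2 at 338 and 328 FPKM, Plin1 at 292 and 315 FPKM and Plin4 at 197 and 236 FPKM. Fitm2, which helps droplets bud from the endoplasmic reticulum, was at 182 and 176 FPKM, and G0s2, an inhibitor of Pnpla2, at 146 and 144 FPKM. The CIDE proteins differed widely from each other: Cidea was at 4.61 and 5.31 FPKM and Cideb at 0.0783 and 0.312 FPKM. Plin5, the perilipin of oxidative tissues, was at 0.168 and 0.0514 FPKM and Fitm1, known from muscle, at 0.0400 and 0.0368 FPKM.

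Fatty acid uptake had 12 of 15 genes expressed, with Fabp4 and Lpl first. The fatty acid receptor Cd36 was at 708 and 563 FPKM, the acyl-CoA synthetase Acsl1 at 635 and 600 FPKM and the second carrier Fabp5 at 530.3 and 545 FPKM. Dbi, which binds acyl-CoA, stood at 167 and 228 FPKM. Acsl6 was listed at 0, Gpihbp1, which holds Lpl on capillary walls, was at 0.107 and 0.182 FPKM and the muscle carrier Fabp3 at 0.0472 and 0.174 FPKM. The list held 1.72% and 1.74% of the protein-coding FPKM, or 3.00% of fragments.

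Fatty acid and triglyceride synthesis had 27 of 29 genes expressed and 9 at 100 FPKM or more, with a median of 46.2 FPKM. Behind Scd1 stood Gpd1, which makes the glycerol backbone, at 770.5 and 842 FPKM, and Agpat2, which adds the second fatty acid, at 516 and 531 FPKM. Both enzymes of the last step were present, Dgat1 at 197 and 207 FPKM and Dgat2 at 122 and 126 FPKM. Slc25a1, which exports citrate from mitochondria, was at 175 and 199 FPKM and Acly, which splits it, at 170.3 and 168 FPKM. Acaca, the carboxylase that commits carbon to fat, was lower, at 18.1 and 18.5 FPKM. At the low end stood Pck1 at 1.79 and 2.09 FPKM, the elongase Elovl6 at 1.08 and 0.889 FPKM and Mlxipl, which encodes the glucose-responsive factor ChREBP, at 0.00702 and 0.0129 FPKM.

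Lipolysis had 10 of 13 genes expressed and a median of 60 FPKM. Hormone-sensitive lipase, Lipe, was at 269 and 277 FPKM, the Pnpla2 activator Abhd5 at 72.5 and 71.6 FPKM and the lysosomal lipase Lipa at 152 and 143 FPKM. Monoglyceride lipase, Mgll, which completes the breakdown, was at 3.01 and 3.72 FPKM. Of the adrenergic receptors that start lipolysis, Adrb3 was low at 0.932 and 0.974 FPKM, and so was Adrb1 at 0.109 and 0.0287 FPKM. Cholesterol synthesis and uptake had 23 of 24 genes expressed, most at middle levels (median 24.1 FPKM). Acat2 was at 185 and 174 FPKM and the sterol sensor Insig1 at 179 and 168 FPKM. Fdps, which makes farnesyl diphosphate, stood far lower, at 1.42 and 1.6 FPKM.

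Of 20 secreted adipokine genes, 13 were expressed (44.1% of all genes) and 7 stood at 100 FPKM or more (1.93% of all genes). They were Agt, Cfd, adiponectin (Adipoq), Angptl4 at 233 and 266 FPKM, resistin (Retn) at 183 and 203 FPKM, chemerin (Rarres2) at 143 and 137 FPKM and Nampt at 139 and 121 FPKM. Angptl4 inhibits lipoprotein lipase and Nampt makes a precursor of NAD. Below them were apelin (Apln) at 27.4 and 29.1 FPKM, Lcn2 at 22.1 and 22.8 FPKM and Metrnl at 16.2 and 18.2 FPKM. Leptin, the satiety hormone of fat tissue, was at 0.0463 and 0.0533 FPKM. Interleukin 6 (Il6) was at 0 and 0.0441 FPKM and Sfrp5 at 0.123 and 0.0376 FPKM. Rbp4, Itln1 and Tnf were listed at 0 in both libraries. For Rbp4, the 3 fragments that a count of 0 allows correspond to 0.0868 and 0.0798 FPKM, a limit that covers counting error only. As a share of fragments the list held 0.738% instead of 1.45%.

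Among adipogenic transcription factors, 17 of 20 were expressed, with Cebpa at 228 and 237 FPKM, Cebpb at 191 and 242 FPKM and Pparg at 104 and 88.0 FPKM. Pparg's partner Rxra was at 68.4 and 75.5 FPKM, the liver X receptor Nr1h3 at 51.5 and 57.1 FPKM and the lipogenic factor Srebf1 at 42.4 and 43.3 FPKM. Cebpd, of the early wave, stood at 29.8 and 34.2 FPKM. Cebpb was 1 of the genes of the top 200 that ranked lowest in control 3, where it was 821st against 156th here. Ppara was at 0.648 and 0.494 FPKM, Rxrg at 0.829 and 0.622 FPKM, and Prdm16, which specifies brown fat, was listed at 0.

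Thermogenic genes, which mark brown and beige fat, were the opposite case: 5 of 16 were expressed, below the 44.1% of all genes, and the median was 0.06 FPKM. Ppargc1b was highest at 18.6 and 16.2 FPKM, followed by the respiratory subunit Cox7a1 at 11.5 and 17.5 FPKM, Elovl3 at 7.65 and 7.08 FPKM, Cidea, and Ppargc1a at 3.28 and 2.70 FPKM. Ucp1, which uncouples respiration to make heat, was at 0.119 and 0.0218 FPKM, the deiodinase Dio2 at 0.0134 and 0.0184 FPKM and Ckb at 0.0537 and 0.0494 FPKM. Zic1, Lhx8, Tmem26 and Prdm16 were listed at 0 in both. Cox8b was at 0.864 and 3.18 FPKM. In control 3 both cytochrome oxidase subunits ranked higher, Cox7a1 919th against 3288th in the mean of control 1 and 2, and Cox8b 954th against 8786th. Ppargc1a also ranked higher there, 4714th against 8005th. Other expressed members ranked lower there, Ppargc1b 2986th against 2806th, Elovl3 6967th against 5411th and Cidea 10878th against 6610th.

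**Figure D2:**
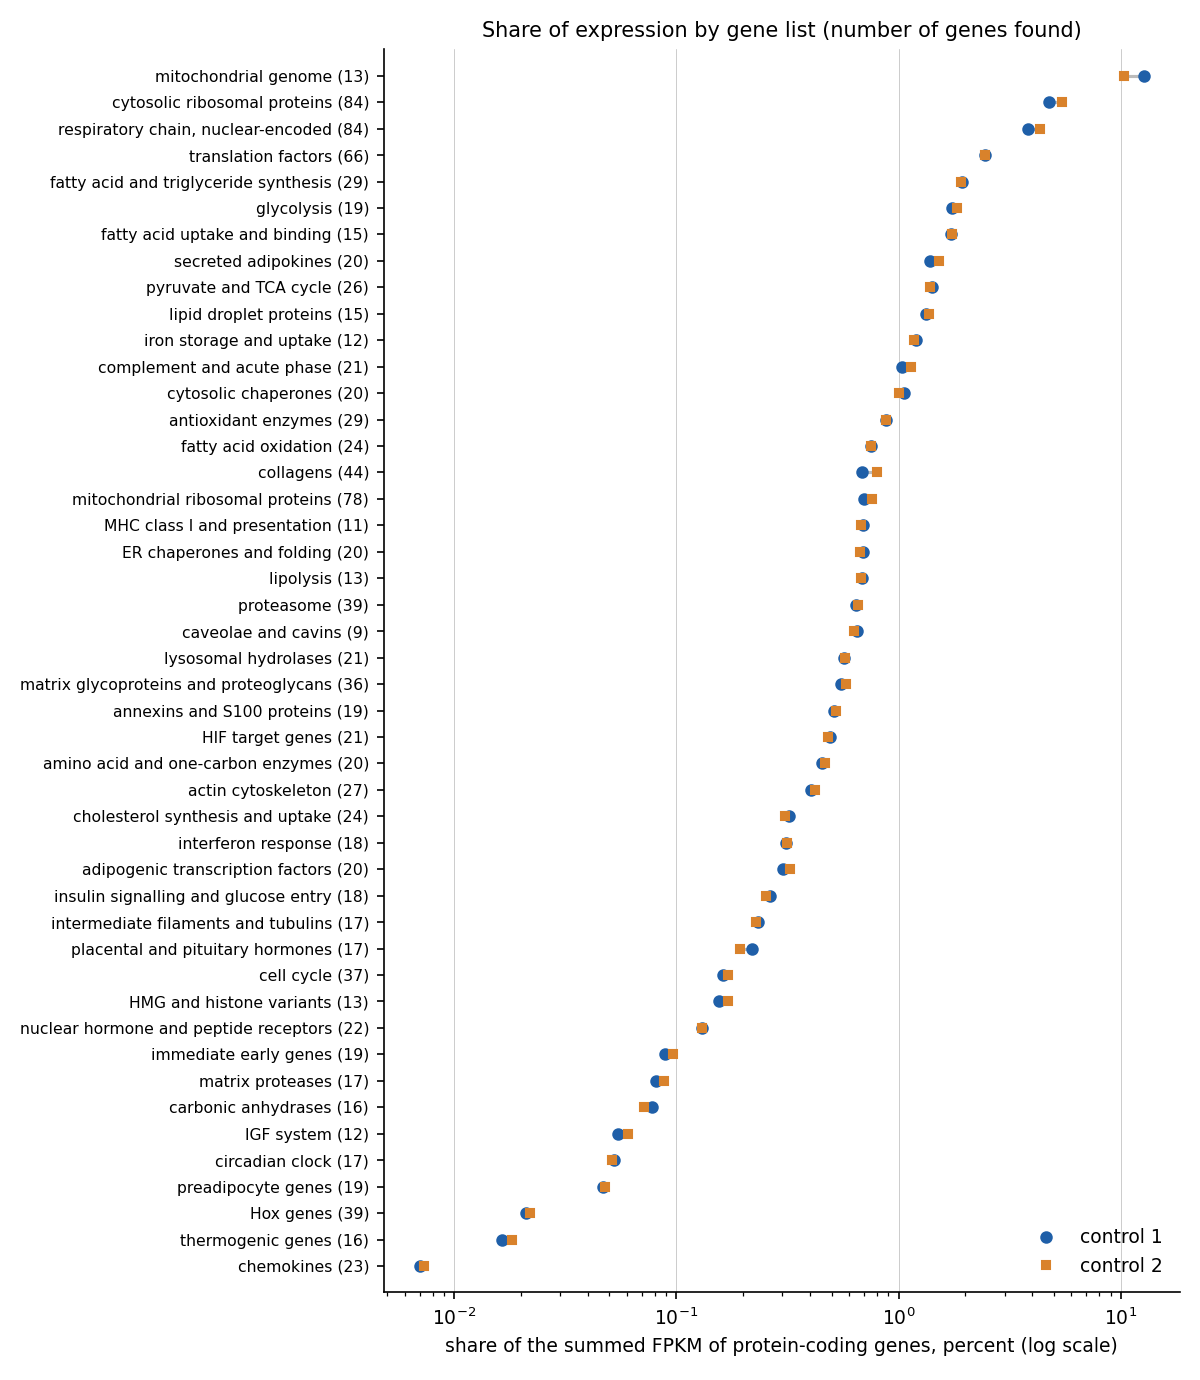
Share of the summed protein-coding FPKM held by each of 46 gene lists (horizontal axis, percent, log scale), with control 1 as circles and control 2 as squares joined by a line. The number of genes found is in brackets, and some genes are in more than 1 list. The mitochondrial genome holds 12.7% and 10.4%, ribosomal proteins 4.74% and 5.44%, and chemokines, at the foot, 0.00702% and 0.0073%.

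Energy metabolism was expressed almost throughout. Glycolysis had 17 of 19 genes expressed and a median of 86.6 FPKM. After Aldoa came Ldha at 718 and 704 FPKM, Pgk1 at 651 and 679 FPKM, Pgam1 at 596 and 615 FPKM, Tpi1 at 504 and 527 FPKM and Pkm at 386 and 411 FPKM, the enzyme that makes pyruvate. The first step was led by hexokinase 2, Hk2 at 82.3 and 90.9 FPKM, above Hk1 at 7.51 and 8.53 FPKM. Gapdh, often used as a reference gene, was listed at only 3.76 and 7.43 FPKM and ranked 6239th, while control 3 ranked it 119th. Of the Gapdh transcript's 50-base windows, 24.7% also occur in other annotated genes, and 10 of the 19 glycolysis genes had at least 5% such windows. With those genes left out the list's share fell from 1.79% to 0.361%, so levels of glycolytic genes with near-identical copies are uncertain. Aldoc and the lactate exporter Slc16a3 were low, at 0.143 and 0.142 and 0.322 and 0.376 FPKM.

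All 26 genes of pyruvate metabolism and the TCA cycle stood at 10 FPKM or more, against 19.7% of all genes, with a median of 121 FPKM. Pyruvate carboxylase, Pcx, which refills the cycle, was highest at 556 and 609 FPKM. Malate dehydrogenase was represented by Mdh1 at 509 and 445 FPKM in the cytosol and Mdh2 at 226 and 236 FPKM in mitochondria. Succinate dehydrogenase ranged from 72.3 FPKM in the mean for Sdhc to 218 for Sdha. Lowest of the list was Me2, at 10.6 and 11.2 FPKM.

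Nuclear genes of the respiratory chain were expressed in 79 of 84 cases with a median of 95.6 FPKM. Complex III had the highest median, 178 FPKM over 9 genes, followed by complex II with 138 over 4, complex I with 89.9 over 36, complex IV with 87.8 over 18 and ATP synthase with 77.8 over 17. The order by share of the protein-coding FPKM was another. Complex I held 1.06% and 1.21%, complex IV 1.04% and 1.23% and ATP synthase 0.853% and 0.916%. Complex III held 0.692% and 0.757% and complex II 0.195% and 0.201%. The highest subunit was Uqcrfs1 in complex III at 481 and 476 FPKM, Sdha in complex II at 213 and 223 FPKM, Cox8a in complex IV and Atp5b in ATP synthase. Several tissue-specific forms were low: Cox4i2 at 0.345 and 0.136 FPKM, Cox7b2 at 0.358 and 0.725 FPKM, Cox6b2 at 0 and 0.0645 FPKM, and Cox8c, listed at 0. Others were expressed, the muscle form Cox6a2 at 10.3 and 11 FPKM and Cox7a1 at the level given above. The complex I gene Ndufb2 was listed at 1.56 and 1.03 FPKM, but control 3 ranked it 572nd, against 9447th here. Its level is therefore uncertain. As a share of fragments the list held 2.08% instead of 4.08%.

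Fatty acid oxidation had 22 of 24 genes expressed with a median of 79.8 FPKM. Carnitine acetyltransferase, Crat, was at 218 and 209 FPKM, the electron carrier Etfa at 199 and 194 FPKM and the very-long-chain dehydrogenase Acadvl at 169 and 183 FPKM. Of the carnitine palmitoyltransferases, Cpt1a, which lets fatty acids into mitochondria, was low at 4.07 and 4.15 FPKM, as was its muscle form Cpt1b at 0.0576 and 0.0530 FPKM. Cpt2, on the inner membrane, was above the median of the list at 104 and 93.0 FPKM. Amino acid enzymes were led by glutamine synthetase, Glul, at 431 and 469.6 FPKM. The branched-chain transaminase of mitochondria, Bcat2, was at 170.1 and 174 FPKM and its cytosolic form Bcat1 at 0.250 and 0.207 FPKM. Of 16 carbonic anhydrases, 5 were expressed (44.1% of all genes), led by the mitochondrial Car5b at 188 and 173 FPKM. Car3, abundant in rodent fat tissue, was at 1.13 and 0.761 FPKM.

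Insulin signalling and glucose entry had 17 of 18 genes expressed, at middle levels (median 22.2 FPKM). The insulin-responsive transporter Slc2a4 (GLUT4) was at 82.7 and 87.6 FPKM and the basal transporter Slc2a1 (GLUT1) at 78.1 and 84.1 FPKM, ranges that overlap. Akt2, the kinase of glucose uptake, was at 51.0 and 53.8 FPKM and Akt1 at 45.6 and 51.1 FPKM. Of the receptor substrates, Irs2 was at 33.4 and 34.3 FPKM and Irs1 at 7.48 and 7.12 FPKM, and the receptor, Insr, at 21.4 and 20.6 FPKM. Irs4 was close to 0, at 0.00617 and 0 FPKM. Among 22 nuclear hormone and peptide receptors, 13 were expressed, against 44.1% of all genes. Adipor2, a receptor of adiponectin, was highest at 194 and 195 FPKM, Adipor1 was at 35.4 and 35.3 FPKM, the growth hormone receptor Ghr at 32.2 and 27.5 FPKM and the glucocorticoid receptor Nr3c1 at 16.8 and 15 FPKM. Lepr was at 0.0717 and 0.0456 FPKM, Esr1 at 0.0455 and 0.0235 FPKM, and Pgr and Ptger3 were listed at 0.

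Targets of the hypoxia-inducible factors, the regulators that respond to low oxygen, were expressed in these control cells in 19 of 21 cases. The share over all genes was 44.1%, and the median of the targets was 20.9 FPKM. Bnip3, a mitophagy receptor, was highest at 473 and 394 FPKM. Fam162a was at 179.6 and 208 FPKM, the disulfide-forming oxidase Ero1l at 170 and 151 FPKM, the prolyl hydroxylase Egln3 at 126 and 124 FPKM and the angiogenic factor Vegfa at 104 and 119 FPKM. Carbonic anhydrase Car9 was at 1.70 and 1.55 FPKM, Car12 at 0.220 and 0.160 FPKM and Ndrg1 at 0.283 and 0.195 FPKM.

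Cytosolic ribosomal protein genes formed the largest nuclear list by share, 4.74% and 5.44%, with 76 of 84 expressed and a median of 132 FPKM. The list was drawn by a name pattern that leaves out Rps3a1, a small-subunit gene at 627 and 595 FPKM. Within it, after Rplp1 and Rplp0 came Rpl36 at 488 and 714 FPKM, Rpl19 at 526 and 548 FPKM and Fau at 455 and 542 FPKM, whose protein is a ribosomal subunit fused to a ubiquitin-like part. A tail of genes lay near or under 1 FPKM, among them Rpl24 at 0.679 and 0.728 FPKM, Rpl29 at 0.587 and 0.857 FPKM, Rps2 at 0.934 and 1.66 FPKM and Rpl36al at 0.460 and 0.713 FPKM. In 77 of the 84, at least 5% of transcript windows also occur in another gene, and the share of the rest was 0.464%. How reads shared with near-identical copies were counted is not stated by any source used here, so single members are uncertain. Rpl10l and Rpl39l, retrogenes known from testis, were listed at 0, and Rpl3l, of muscle, was at 0 and 0.0217 FPKM. Mitochondrial ribosomal proteins were lower, with 77 of 78 expressed and a median of 21.2 FPKM.

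Translation factors had 61 of 66 expressed. Tpt1 was at 384 and 378 FPKM and Eif5a at 263 and 278 FPKM, and Eef1a2, the muscle and nerve form of Eef1a1, was listed at 0. All 20 chaperones of the endoplasmic reticulum stood at 10 FPKM or more, led by the disulfide isomerase P4hb at 416 and 414 FPKM and the chaperone BiP, Hspa5, at 288 and 269 FPKM. Cytosolic and mitochondrial chaperones were led by Hsp90ab1 at 704 and 709 FPKM and Hspd1 at 573 and 536 FPKM. The heat-inducible forms Hspa1a at 1.45 and 1.73 FPKM and Hspb1 at 1.02 and 1.28 FPKM were lowest. The proteasome had 37 of 39 genes expressed, from Psma1 at 194 and 169.6 FPKM down to the thymus subunit Psmb11 and the testis subunit Psma8, both listed at 0. Lysosomal genes were led by prosaposin, Psap, at 536 and 561 FPKM, the membrane protein Lamp1 at 241 and 228 FPKM and cathepsin D, Ctsd, at 218 and 208 FPKM, while Ctss, known from immune cells, was listed at 0.

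Iron and redox genes were abundant. Ferritin light chain, Ftl1, was at 511 and 529.9 FPKM, the haem-degrading enzyme Hmox1 at 194 and 202 FPKM, and the transferrin receptor Tfrc at 28.0 and 22.2 FPKM. The iron exporter Slc40a1 was at 0.225 and 0.210 FPKM and transferrin itself, Trf, at 0.0117 and 0.0323 FPKM. Of 29 antioxidant enzymes, 27 were expressed in both, led by Mgst3 at 378 and 421 FPKM and by Gpx4, which detoxifies lipid peroxides, at 305 and 290.4 FPKM. Catalase, Cat, was at 179.6 and 169.5 FPKM. Gpx3, a secreted peroxidase, was at 0.236 and 0.256 FPKM.

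Collagen genes showed a strong split, with 18 of 44 expressed (near the 44.1% of all genes) and 5 at 100 FPKM or more (1.93% of all genes). Collagen VI led, with Col6a1 at 446 and 488 FPKM, Col6a3 at 446 and 486 FPKM and Col6a2 at 159.8 and 179 FPKM. Basement membrane collagen IV followed, with Col4a1 at 319.8 and 425 FPKM and Col4a2 at 248 and 316 FPKM. The fibrillar collagens of fibroblasts were lower, Col3a1 at 55.3 and 62.0 FPKM, Col1a1 at 54.0 and 62.7 FPKM and Col1a2 at 50.2 and 59.9 FPKM. A total of 9 of the 44 genes were listed at 0, below the 32.5% of all genes. Among them were Col4a6, Col6a4, Col6a5 and Col6a6, and Col2a1 of cartilage was at 0 and 0.00387 FPKM. All 19 collagen genes whose mean reached 1 FPKM were higher in control 2, with a median log2 ratio of 0.22. By fragments the list's share was 1.67% instead of 0.740%.

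Other matrix genes were led by galectin 1, Lgals1, at 541 and 588 FPKM, biglycan, Bgn, at 184 and 183 FPKM and Sparc at 145 and 153 FPKM. Nidogen, Nid1, and laminin, Lamc1, both of the basement membrane, were at 143 and 140.1 and 77.8 and 81.6 FPKM. Lumican (Lum) was at 0.0635 and 0.0146 FPKM, elastin (Eln) at 0.00960 and 0.0265 FPKM, and Fbn2 and Efemp1 were listed at 0. Among proteases, Mmp2, a gelatinase, was at 101 and 109.7 FPKM and its activator Mmp14 at 29.9 and 33.0 FPKM, while Mmp9 was at 0.0878 and 0.0606 FPKM and Plau at 0.0164 and 0.0151 FPKM.

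Caveolae, the pits that cover much of an adipocyte's surface, had 7 of 9 genes expressed, all 7 at 10 FPKM or more. Cavin1 stood at 742 and 780 FPKM, Ehd2 at 329 and 318 FPKM, Cavin2 at 287 and 251 FPKM and caveolin 1, Cav1, at 278 and 240.3 FPKM. The muscle forms Cavin4 at 0.0946 and 0.226 FPKM and Cav3, listed at 0, were not expressed. The cytoplasmic actins Actb and Actg1 were at 287 and 286 FPKM and 192 and 190.1 FPKM. The smooth muscle forms Acta2 at 1.66 and 1.58 FPKM and Tagln at 0.215 and 0.126 FPKM were low and Cnn1 was listed at 0. Vimentin, Vim, was at 161 and 166 FPKM and nestin, Nes, was listed at 0. Of annexin and S100 genes, S100a1 at 262 and 265 FPKM and S100a11 at 231 and 219.6 FPKM were highest. The inflammatory S100a8 was at 0.448 and 0.463 FPKM and S100a9 was listed at 0. In the IGF system the binding protein Igfbp7 at 68.2 and 76.9 FPKM was highest, while the ligands Igf1 at 0.691 and 0.534 FPKM and Igf2 at 0.0475 and 0.0375 FPKM stayed under 1.

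Genes known from the undifferentiated state were also measured: 14 of 19 preadipocyte genes were expressed, against 44.1% of all genes, and their median was 4.05 FPKM against 0.342 for all protein-coding genes. Ly6a (Sca-1) was highest at 52.0 and 48.7 FPKM. The receptor Pdgfra was at 12.5 and 12.9 FPKM and Dlk1 (Pref-1), an inhibitor of adipogenesis, at 5.59 and 5.99 FPKM. Gata2, a repressor of the programme, was at 0.0144 and 0.0397 FPKM, Gata3 at 0.547 and 0.548 FPKM and the stem cell antigen Cd34 at 0.0107 and 0 FPKM. These genes can come from cells that had not differentiated or from the adipocytes, which a bulk culture cannot tell apart.

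Innate immune genes split by kind. Complement and acute phase genes held 1.04% and 1.13% of the protein-coding FPKM, nearly all of it in Cfd, C3 and Hp. Of these 21 genes, 11 were expressed, not far from the 44.1% of all genes. Serpina3n was at 81.2 and 84.4 FPKM and orosomucoid, Orm1, at 62.2 and 58.4 FPKM. The C1q chains C1qa, C1qb and C1qc, which macrophages make, were listed at 0, and Saa3 was at 0.0746 and 0.274 FPKM. All 11 MHC class I and presentation genes were expressed, with H2-D1 at 411 and 478 FPKM and H2-K1 at 186 and 192 FPKM. The highest of 18 listed interferon-response genes were Ifi27 at 238 and 245 FPKM and Ifitm3 at 218 and 233 FPKM. The inducible genes differed widely. Bst2 was at 105 and 119 FPKM and Isg15 at 32.6 and 43.4 FPKM, but Rsad2 was at 0.636 and 0.717 FPKM and Mx1 at 1.19 and 1.01 FPKM. In control 3, Bst2 ranked 6460th against 388th in the mean of control 1 and 2, and Isg15 10617th against 1294th. Ifi27l2a, a relative of Ifi27 outside the list, was higher at 297 and 361 FPKM. Chemokines were the lowest list by share. Of 23, 7 were expressed, against 44.1% of all genes, and none stood at 10 FPKM. Cxcl12 was highest at 4.96 and 5.64 FPKM, ahead of Ccl9 at 3.53 and 3.52 FPKM and Ccl7 at 3.20 and 2.94 FPKM, and Ccl3, Ccl4, Ccl11, Ccl19, Ccl20, Cxcl2 and Cxcl14 were listed at 0.

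Cell cycle genes were expressed in 35 of 37 cases, against 44.1% of all genes, with a median of 3.95 FPKM. The highest were inhibitors and a D cyclin: Cdkn1a (p21) at 91.1 and 98.1 FPKM, Cdkn2a at 81.0 and 89.2 FPKM, cyclin D2 (Ccnd2) at 75.3 and 72.4 FPKM and Cdkn2c at 39.8 and 43.0 FPKM. The proliferation marker Mki67 was at 1.36 and 1.03 FPKM, the topoisomerase Top2a at 2.01 and 1.93 FPKM and cyclin A2 (Ccna2) at 1.37 and 1.5 FPKM. Cdkn1c was at 0 and 0.0526 FPKM. Variant histones were led by H3f3b at 116 and 121 FPKM, and Hmga2 was at 2.50 and 2.14 FPKM. Immediate early genes were led by Fosl1 at 64.4 and 66.8 FPKM, above Jun at 28.7 and 33.6 FPKM, Myc at 24.0 and 22.8 FPKM and Fos at 3.62 and 3.39 FPKM. In the circadian clock the repressor Nr1d1 was highest at 24.3 and 23 FPKM with Per1 at 22.6 and 24.7 FPKM, and the activators Clock and Arntl were at 10.4 and 8.30 and 2.85 and 2.60 FPKM.

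Mdm2 was the 10th nuclear gene, and its neighbour Slc35e3 the 8th. Mdm2 lies on chromosome 10 at 117688875 to 117710758 and Slc35e3 lies at 117733679 to 117746365, both on the minus strand. Other genes within 500 kb were far lower. Cpm, on one side, was at 33.4 and 31.9 FPKM, and on the other Nup107 was at 5.11 and 4.73 FPKM, Rap1b at 50.2 and 44.5 FPKM and Mdm1 at 1.87 and 2.09 FPKM. Farther out, Cpsf6 was at 6.12 and 6.03 FPKM and Yeats4 at 11.8 and 12.1 FPKM. The p53 gene, Trp53, stood at 11.1 and 12.3 FPKM, and of its known targets Ccng1 was at 58.2 and 47.7 FPKM, Bax at 14.4 and 15.6 FPKM and Gtse1 at 0.751 and 0.717 FPKM, beside Cdkn1a above. Mdm4, the relative of Mdm2, was at 4.84 and 4.49 FPKM. Shared windows made up 1.21% of the Mdm2 transcript and 19.2% of that of Slc35e3. In control 3, Mdm2 ranked 49th and Slc35e3 71st, so both were high in all 3 control libraries.

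**Figure D3:**
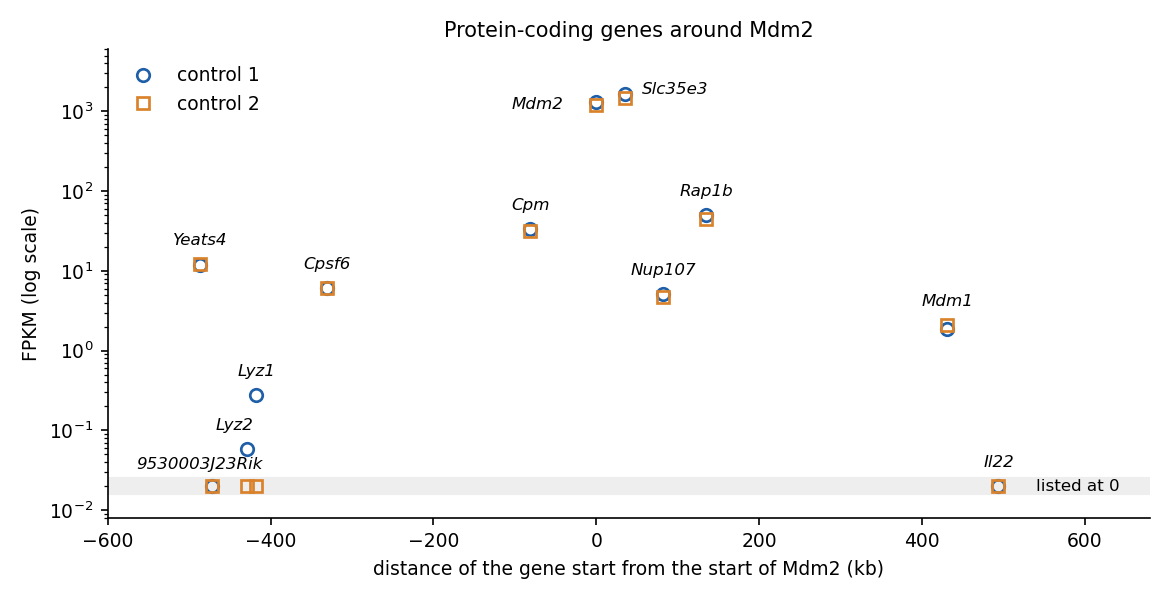
FPKM of the 12 protein-coding genes that lie within 500 kb of Mdm2 (vertical axis, log scale, genes at 0 drawn in the grey band) against the distance of their start from the start of Mdm2 in kb. Circles are control 1 and squares control 2. Mdm2 and Slc35e3 stand above 1000 FPKM in both libraries, and every other gene is at or below 50.2 FPKM.

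Hormones known from placenta, pituitary, hypothalamus and pancreas were mostly not detected. Of 17 genes of that list, 11 were at 0 in both, against 32.5% of all genes, among them Gh, Prl, Pomc, Ins1, Ins2 and Npy. Growth hormone-releasing hormone, Ghrh, was the exception at 196 and 207 FPKM, with 3 genes of the proliferin group of prolactin relatives, Prl2c3 at 189 and 144 FPKM, Prl2c5 at 178 and 140.3 FPKM and Prl2c2 at 63.4 and 58.8 FPKM. The proliferins are near-identical copies, so the split among them is uncertain. In control 3, Ghrh ranked 4303rd, against 169th in the mean of control 1 and 2. The proliferins were lower there too: Prl2c3 ranked 3702nd against 236th, Prl2c5 7309th against 252nd and Prl2c2 3701st against 752nd. Of 39 Hox genes, which keep positional identity, 8 were expressed, below the 44.1% of all genes. Listed at 0 were 13 of them, near the 32.5% of all genes. Hoxd8 was highest at 25.6 and 24.5 FPKM, then Hoxa7 at 7.22 and 8.01 FPKM, Hoxd9 at 6.82 and 6.94 FPKM and Hoxa4 at 5.34 and 6.23 FPKM.

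The label of adipocytes was checked against cell type markers. All 6 adipocyte markers stood at 100 FPKM or more, with a summed level of 5548 and 5847 FPKM. Leptin and Car3, also known from fat tissue but outside this marker set, were low at the levels given above. Of 12 preadipocyte and fibroblast markers 8 were expressed, with a sum of 244 and 266 FPKM, mostly from collagen genes and Ly6a. None of the markers of skeletal muscle (6), endothelium (6), hepatocytes (5), neurons (5), lymphocytes (6) and erythroid cells (4) were expressed, and their sums stayed under 0.5 FPKM in each library. Of 8 macrophage markers 2 were expressed, Cd14 at 7.71 and 7.39 FPKM and Cd68 at 1.51 and 1.73 FPKM, while Ptprc, Adgre1 and Itgam were listed at 0. Control 3 ranked Cd14 lower, 10322nd against 5327th in the mean of control 1 and 2, and Cd68 higher, 8465th against 9138th. Epithelial markers were expressed in 3 of 6 cases, the keratins Krt8 at 6.39 and 5.86 FPKM, Krt18 at 2.30 and 3.63 FPKM and Krt14 at 1.26 and 1.42 FPKM, with Epcam and Krt5 listed at 0. These 3 keratins ranked lower in control 3, Krt8 12164th against 5962nd, Krt18 10401st against 8025th and Krt14 12657th against 9393rd. Smooth muscle had 3 of 6, Des at 7.94 and 8.17 FPKM, Myh11 at 3.80 and 4.13 FPKM and Acta2. Of 6 osteoblast and cartilage markers only Sox9, at 2.99 and 3.16 FPKM, passed in both, and Runx2 was at 0.963 and 1.03 FPKM.

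**Figure D4:**
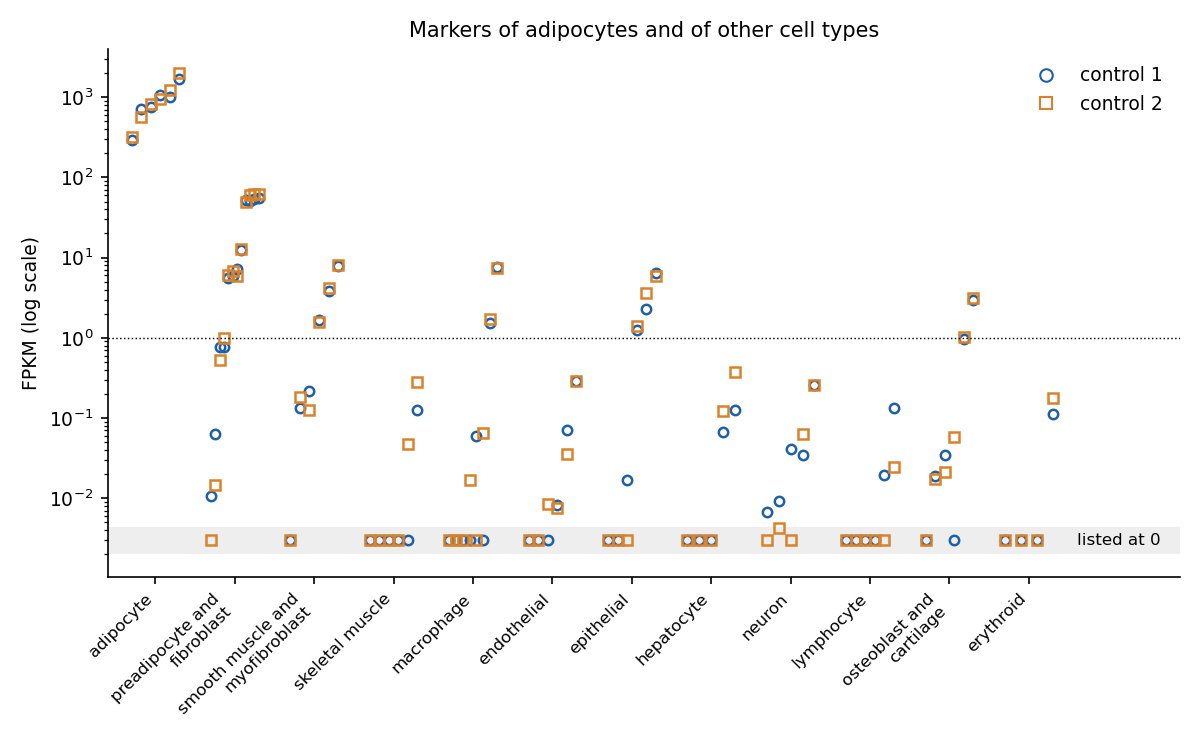
FPKM of each marker gene (vertical axis, log scale) by cell type, with circles for control 1 and squares for control 2, and genes listed at 0 drawn in the grey band. Within a cell type the markers are spread sideways by level. The 6 adipocyte markers lie at the top, from 292 FPKM up, fibroblast markers reach about 62.7 FPKM, and no marker of any other type passes 10 FPKM.

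The libraries were close to each other. Across genes whose mean reached 1 FPKM the median fold between control 1 and control 2 was 1.09 and the SD of the log2 ratio 0.22. Past 1.5-fold stood 154 of 9786 genes (1.57%), 97 higher in control 2 (0.991%) and 57 higher in control 1 (0.582%). Among the 100 highest nuclear genes the largest fold was 1.46. With 1 value per library these are descriptions, and no test was made. Some lists leaned towards control 2: 61 of 77 ribosomal protein genes were higher in control 2 (median log2 ratio 0.21), as were 63 of 80 respiratory chain genes (0.15). The ratio also moved with gene length, with a median log2 ratio of 0.16 for genes under 1000 exonic bases, 0.10 from 1000 to 2000, 0.03 from 2000 to 4000 and −0.03 above. Whether length has a part in the list differences was not tested. With a mean of at least 10 FPKM, the genes furthest apart upward in control 2 had 616 to 1719 exonic bases: Tomm7 at 12.2 and 30.3 FPKM, the ribosomal genes Rps28 at 57.9 and 111 FPKM and Rps29 at 57.3 and 104 FPKM, Atp5k at 37.1 and 66.6 FPKM and Romo1 at 44.1 and 77.3 FPKM. The furthest downward were mt-Co3, Idi1 at 15.9 and 10.7 FPKM, Dram2 at 17.5 and 11.8 FPKM, Aspn at 17.9 and 12.0 FPKM and mt-Atp6.

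Control 3 was used to check ranks. Across 21391 protein-coding genes, Spearman's rho between the mean of control 1 and 2 and control 3 was 0.932, against 0.982 between control 1 and control 2. Over the 9750 genes that averaged 1 FPKM or more it was 0.793, against 0.993. These are correlations across genes, which are not independent replicates. Of the top 100 genes, 51 were also in the top 100 of control 3, while control 1 and 2 shared 97. The 6 adipocyte markers ranked 9th (Fabp4), 16th (Lpl), 26th (Adipoq), 43rd (Cd36), 87th (Plin1) and 200th (Cfd) there, and 29 of the 30 highest nuclear genes were in its top 200. From the other side, 24 genes of the top 200 of control 3 ranked below 1000 in control 1 and 2. They include, besides Gapdh and 3 mitochondrial genes, Rps10, Rpl24, Mt2 and Ece1, named after their values were seen. Rps10 was at 1.04 and 1.28 FPKM, Mt2 at 10.4 and 9.11 FPKM and Ece1 at 23.5 and 27.2 FPKM. Rps10 ranked 114th in control 3 against 9588th in the mean of control 1 and 2, and Rpl24 79th against 10217th. At least 5% shared windows were found in 14 of these 24 and in 96 of the other 176 of that top 200, against 12.7% of all expressed genes. What part shared sequence has in these differences was not tested. The top 200 genes that ranked lowest in control 3 were Ghrh (4303rd), Hmox1 (1312th), Ifitm3 (1240th), Cebpb (821st), Pim3 (820th), Arhgdia (742nd), Lrrc59 (738th) and Aldh1a7 (732nd).

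**Figure D5:**
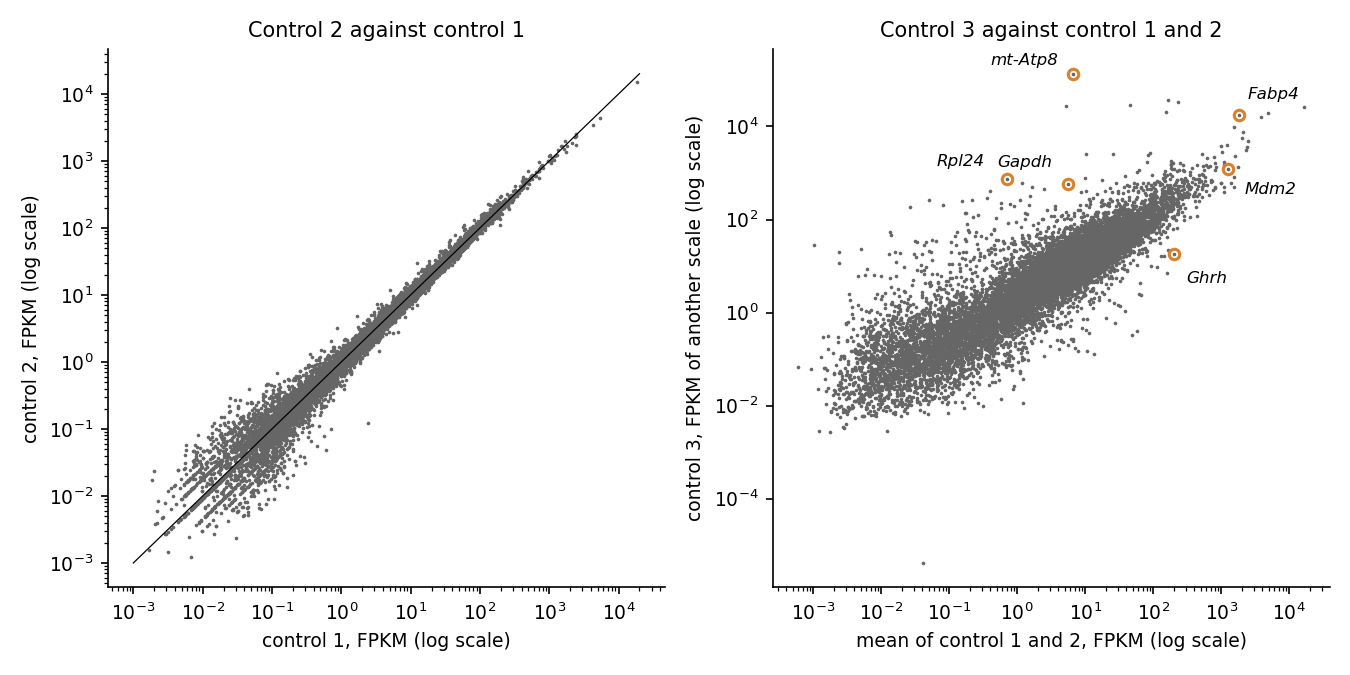
Left, FPKM of each protein-coding gene in control 2 against control 1 with the line of equal values. Right, the value in control 3, on its own scale, against the mean FPKM of control 1 and 2, with 6 genes circled. All axes are logarithmic and genes at 0 are not drawn. Points hug the line on the left, while on the right mt-Atp8, Rpl24 and Gapdh lie far above the cloud and Ghrh below it.

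Among expressed genes the abundant ones were shorter, but genes not expressed were short too, with a median of 2750.5 exonic bases. The 100 highest nuclear genes had a median of 2573 exonic bases, ranks 101 to 1000 had 2850, ranks 1001 to 5000 had 4190.5 and ranks 5001 to 9668 had 5252. FPKM divides by the length of all exons of a gene, so a gene whose annotation holds long rarely used exons is given a lower value. Fabp4 has 4489 such bases in the annotation, and its FPKM of 1698 and 1992 rests on 196209 and 250283 fragments. Lpl, with 10478 bases, had more fragments (289415 and 276423) at a lower FPKM. By fragments, the 100 highest genes held 24.9% of the total instead of 33.3%.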

How the data were processed

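Values of the gene tables and of the control 3 transcript table were deposited by the authors as FPKM, a unit read from the values because the headers give only sample names. Per the submitters' processing notes, GRCm38, featureCounts 1.5.0-p3 and DESeq 1.8.3 were used, with no role stated. The aligner and the strand setting of the counting are not stated by any source used here, so genes that overlap on opposite strands cannot be told apart. Libraries were made with a directional kit from 1.3 µg of total RNA, per the labels.

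Biotypes, symbols and exon lengths came from GENCODE mouse release 21 by Ensembl ID, and 123 of 54532 IDs had no symbol. In all, 20 protein-coding symbols are carried by 2 IDs. Depth was recovered by multiplying low FPKM values by exon length: 98.4% and 98.6% of genes under 50 fragments lay within 0.05 of a whole fragment (10% by chance). This step was tested on simulated data. The 50660 transcript entries of control 3 were summed over 21950 gene IDs, and its depth is unknown. Shared sequence is the percentage of a gene's 50-base transcript windows that occur in another gene.

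No comparison of groups was made. The members, the 46 lists of 1175 genes in all and the classes of the 100 highest genes were chosen with earlier results of these data known. Named genes were the 30 highest nuclear genes, the mitochondrial-encoded genes, up to 6 highest and the lowest members of each list, the 6 adipocyte markers, and genes furthest apart between libraries. Genes outside the rule were named for their place in a pathway. Some genes that the rule covers are not reported here. Tables were computed with Python 3.11.15, pandas 2.3.3, scipy 1.17.1 and matplotlib 3.10.9.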

Additional observations from a re-analysis of the deposited data

How the results depend on the processing

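The count of expressed genes was 9668, 10447 at 0.5 FPKM, 6412 at 5 FPKM, 10869 at 1 TPM, and 9777 to 9787 in either library alone. The 100 highest genes held 33.3% of the FPKM, 25.6% without mitochondrial-encoded genes, 24.9% by fragments, 29.4% over genes with under 5% shared windows, and 32.6% to 34.0% in either library alone. The number of lists with a median above that of expressed genes was 32 of 46, 29 by fragments, 40 over members with a mean of at least 1 FPKM, and 31 to 32 in either library alone. By fragments, the share of 16 lists moved by more than 1.5 times, and with shared windows limited to under 5% that of 7 lists did. Without control 1 the median of the chemokines was 0.373 FPKM and that of the thermogenic genes 0.0356, both over 1.5 times away from the values over both libraries. The count of genes past 1.5-fold between the libraries was 154, 62 with a pseudocount of 1 FPKM, 34 at a mean of at least 10 FPKM, and 151 and 153 after scaling by the median of ratios or by totals. Spearman's rho against control 3 was 0.932, 0.933 with the highest entry per gene, 0.793 at a mean of at least 1 FPKM, 0.943 over genes with under 5% shared windows, and 0.929 with either library alone. The limit on shared windows was chosen after seeing the data. No paired analysis was possible because only 1 group was described and no test was made. With 2 libraries, spread between cultures cannot be told from technical spread, and a low FPKM of a short gene rests on few fragments.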

Other observations

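Long noncoding RNAs were low beside protein-coding genes. Of 9675 such genes, 271 stood at 1 FPKM or more in both libraries (2.80%, against 44.1% of protein-coding genes), 24 at 10 FPKM and 0 at 100 FPKM. The set goes by biotype alone and takes in genes annotated as processed transcripts. Among these are Tmem134 at 62.7 and 75.4 FPKM and Cct6a at 45.9 and 46.4 FPKM, which are therefore not in the protein-coding ranking. Malat1, a nuclear RNA abundant in most cells, was at 43.3 FPKM in control 1 and 50.2 FPKM in control 2, and Neat1, which builds paraspeckles, at 10.7 and 14.9 FPKM. Gas5, a host of small nucleolar RNAs, was at 5.43 and 6.23 FPKM. The imprinted H19 was at 0.111 and 0.450 FPKM, and Meg3, from the imprinted region that also holds Dlk1, was listed at 0 in both, while Dlk1 itself was at 5.59 and 5.99 FPKM. Lncbate1, known from brown fat, was at 0.191 and 0.088 FPKM.

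Protein-coding genes of chromosomes 8, 19 and 11 were expressed most often, in 53%, 52.6% and 51.7% of cases, and those of the X chromosome and chromosome 7 least often among the larger ones, in 32.1% and 34.8%. Chromosome 10, home of Mdm2, Slc35e3, Bsg and Cfd, held 6.30% and 6.60% of the protein-coding FPKM with 1020 of the 21918 genes.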
